A study of Mus musculus with 14 samples.

Results

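The lysosome was followed through the mRNA of 45 genes in cultured mouse hepatic stellate cells (HSCs), the vitamin A storing cells of the liver that turn into matrix-producing myofibroblasts after liver injury. The genes encode 10 peptidases, 14 glycosidases and sulfatases, 6 lipid hydrolases and cofactors, 6 membrane proteins and 9 parts of the vacuolar proton pump, the V-ATPase. They were chosen by name, with no cutoff on a measured value, but with earlier results of these data known. A gene was read from a probe set that carries its symbol and no other. All 45 were found among 19938 different symbols, each with 1 probe set of its own among the 23410 tested, and no probe set of several genes names any of them. The cells were primary HSCs of BalbC mice (Balb/cByJ in the methods, age not given in the sources used here), grown in DMEM with fetal bovine serum. Loose cells were washed away 2 h after seeding, and time in culture was counted from that wash. The control groups were Ctrl4h (4 h, n = 3), Ctrl16h (16 h, n = 2) and Ctrl64h (64 h, n = 3). Cells given 2.5 mM valproic acid (VPA), an inhibitor of histone deacetylases, from the wash onward made up the groups VPA4h (4 h, n = 3) and VPA64h (64 h, n = 3). The study used culture as the trigger of HSC activation and VPA as a drug that holds it back, and it asked which genes change early. The arrays of a group came from separate HSC isolations.

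Lysosomes are acidic organelles in which hydrolases take apart the proteins, glycans and lipids that endocytosis and autophagy bring in. The V-ATPase acidifies them with a proton channel in the membrane, the V0 sector, that is driven by an ATP-splitting sector on the cytosolic side, the V1 sector, and glycoproteins such as Lamp1 line the inner face of the membrane. Many lysosomal genes share a palindromic promoter element, the CLEAR element, that is bound by TFEB and its relatives of the MiT/TFE family, and HSCs use lysosomes and autophagy to consume their lipid droplets.

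The authors' values are log2 expression levels made by RMA on 14 arrays, 1 per culture. RMA equalises the spread of intensities across arrays, so a change in a gene is measured against the bulk of the other genes. The array medians over the tested probe sets ran from 6.34 to 6.41, the correlation between arrays of a group from 0.993 to 0.996, and no arrays held identical values. A level of 1 probe set cannot be set against that of another. A gene is said to rise or fall where limma, in 1 fit of all groups, gave an adjusted p (Benjamini-Hochberg, all 23410 tested probe sets) under 0.05. Changes are differences of log2 levels with their standard error (SE). Counts of genes that also changed at least 2-fold, the limit of the study's methods, are given second. The number of arrays limits the precision.

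Between 4 h and 64 h of control culture 40 of the 45 lysosomal genes rose and 1 fell, in a comparison in which 25.0% of all tested probe sets rose and 31.6% fell. Of these, 15 rose at least 2-fold, against 6.68% of the tested probe sets. No gene fell 2-fold (3.71%). The median change of the 45 genes was 0.79 and that of all tested probe sets -0.09. Of the 45 genes, 44 had a mean level above the median of the tested probe sets, 6.40. Here and below, the shares of all tested probe sets also count those below that median. Whether the level of the 45 genes has a part in the difference from these shares was not tested. The gene that fell was Ctsk, and Man2b1, Cd63, Cln3 and Atp6v1h did not pass the test. By 16 h 14 genes had risen (12.8% of all tested probe sets) and 7 had fallen (7.32%), 1 of them, Man2b1, at least 2-fold (1.21%), with a median change of 0.18 that became -0.24 when the arrays were centred on a Gapdh probe set. The median of all tested probe sets was then -0.43. From 16 h to 64 h 36 genes rose (19.2%), 14 of them at least 2-fold (4.52%), and 1 fell (23.9%), less than 2-fold (2.08% fell at least 2-fold), with a median change of 0.63. These 2 steps share the Ctrl16h arrays. In bulk RNA, a change in the number of cells of a type and a change in the RNA per cell cannot be told apart.

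Centring the arrays on that Gapdh probe set, which names 4 genes, moved the median of all tested probe sets between 4 h and 64 h to -0.65 and that of the 45 genes to 0.23. On this scale 20 of the 45 genes rose and 7 fell, beside 8.92% and 76.3% of the tested probe sets. Centring on 16 housekeeping genes moved the median of all tested probe sets to -0.23 and left that of the 45 genes at 0.64.

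VPA raised 16 of the 45 genes after 4 h, 5 of them at least 2-fold, and lowered 4, while 11.5% of the tested probe sets rose (0.867% at least 2-fold) and 9.96% fell. After 64 h it raised 18 and lowered 5, 2 of those at least 2-fold, while 12.8% of the tested probe sets rose and 11.2% fell (1.14% at least 2-fold). The median VPA effect on the 45 genes was 0.13 at 4 h and 0.20 at 64 h. On the scale centred on the Gapdh probe set it was -0.20 at 4 h, with 8 genes higher and 17 lower, and 0.08 at 64 h, with 12 higher and 6 lower. The median of all tested probe sets on that scale was -0.36 at 4 h, where 3.89% were higher and 64.8% lower. At 64 h it was -0.12, where 6.3% were higher and 16.5% lower. The highest group mean of a gene was that of VPA64h for 29 genes and that of Ctrl64h for 13.

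**Figure D1:**
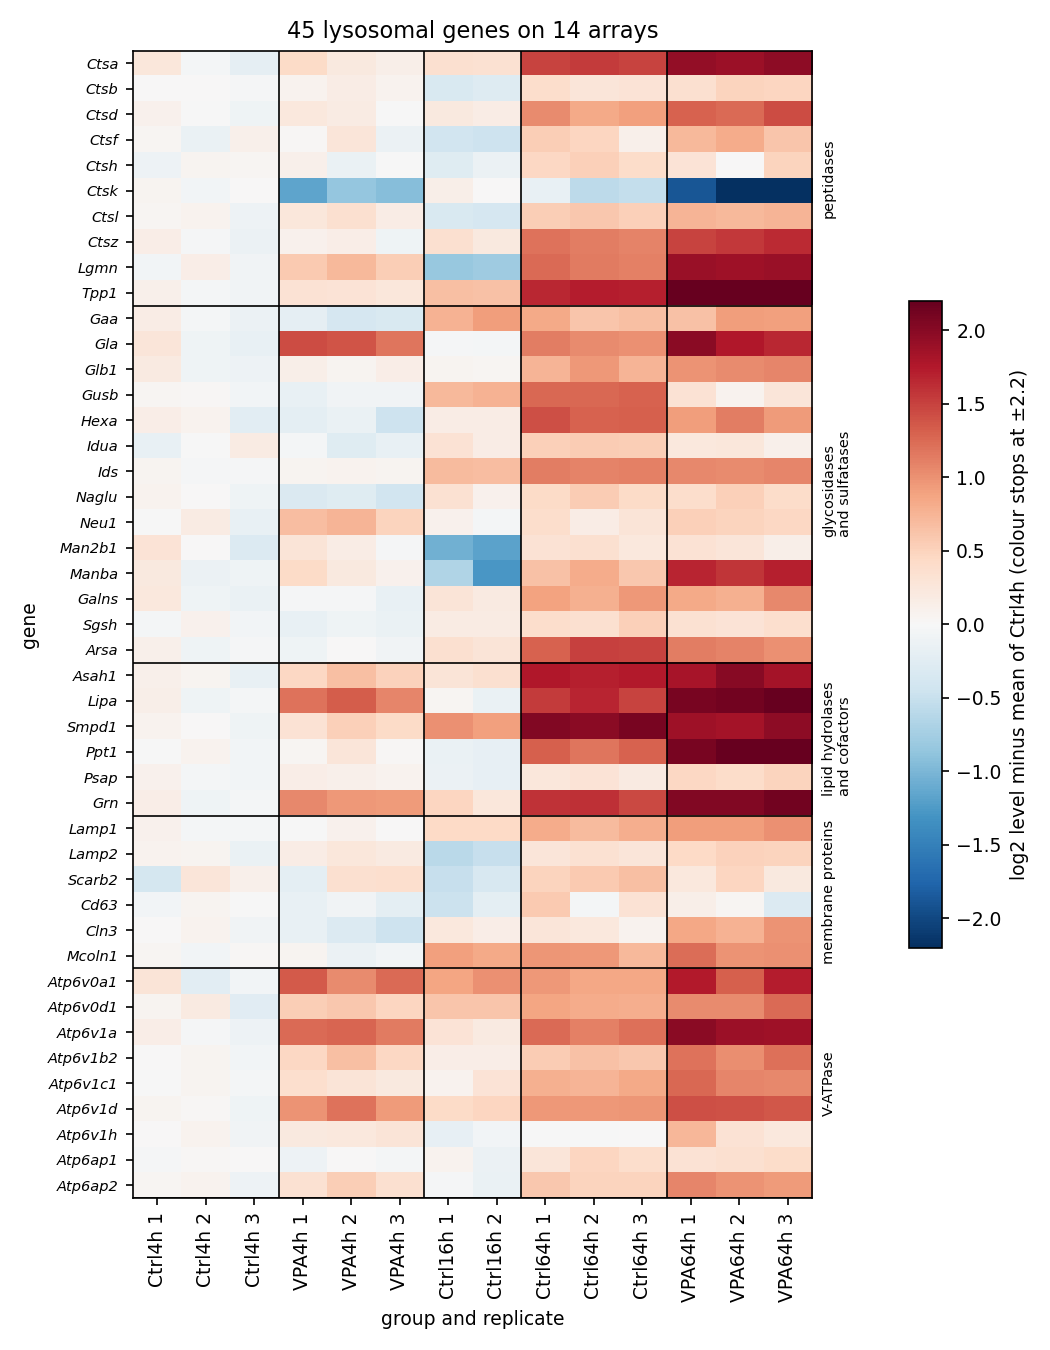
Heat map of the 45 lysosomal genes (rows, grouped by role) on the 14 arrays (columns, group and replicate), coloured by the log2 level minus the mean of the Ctrl4h arrays, with the colour scale ending at 2.2 in either direction. The 64 h arrays are red for nearly all genes, Ctsk is blue in all 6 VPA arrays, and Lgmn, Man2b1 and Manba are blue in both Ctrl16h arrays.

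The promoters of some of these genes hold the palindrome CACGTG, the core that MiT/TFE factors recognise, or its longer form TCACGTGA, which contains it. Each is its own reverse complement, so 1 search covers both strands. Of the 45 genes 38 had a RefSeq window of 250 bases before to 50 bases after a transcription start. The core was found in 16 of these 38 (42.1%), against 8.09% of all 27025 genes with a window. The longer form was found in 7 (18.4%), against 1.12% of all genes: Ctsa, Atp6v1a, Gla, Ctsd, Mcoln1, Atp6v0d1 and Cln3. A match is a description of the sequence, not evidence of a bound factor. For the 4 genes among them with the largest change between 4 h and 64 h, the stretches upstream of the window's transcription start are shown. They let the element be seen and come from RefSeq on GRCm38.p6, 5′ to 3′ on the strand of the gene, with each longer form in capitals. They lie at chr2:164833700-164833772 on the plus strand for Ctsa, and on the minus strand at chr16:44139324-44139451 for Atp6v1a, chrX:134601133-134601255 for Gla and chr7:142387859-142387986 for Ctsd.
Ctsa: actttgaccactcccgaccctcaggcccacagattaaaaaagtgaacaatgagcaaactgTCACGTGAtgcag
Atp6v1a: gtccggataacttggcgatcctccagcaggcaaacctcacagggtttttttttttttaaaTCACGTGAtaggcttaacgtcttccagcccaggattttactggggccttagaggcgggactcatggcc
Gla: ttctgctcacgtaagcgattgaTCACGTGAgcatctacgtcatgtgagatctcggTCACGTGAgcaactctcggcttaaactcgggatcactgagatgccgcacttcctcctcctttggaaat
Ctsd: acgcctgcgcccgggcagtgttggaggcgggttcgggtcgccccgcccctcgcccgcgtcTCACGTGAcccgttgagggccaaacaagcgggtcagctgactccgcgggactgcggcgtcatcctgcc
The element in capitals begins 13 bases before the start in Ctsa (a further copy lies after the start and is not shown), 132 bases before it in Atp6v1a and 99 bases before it in Ctsd, and the Gla promoter holds it at 228 and at 195 bases before the start. For Ctsa and Atp6v1a the RefSeq gene begins further upstream, at chr2:164832872 and chr16:44139702. The stretches of these genes therefore lie before the start of the window but inside the annotated gene. Between 4 h and 64 h the median change was 0.92 for the 7 genes with the longer form, 0.70 for the 9 with the core alone, 0.79 for the 22 with neither and 0.60 for the 7 without a window. In that comparison the 7 genes with the longer form ranged from 0.19 to 1.51 and the 22 with neither from -0.42 to 2.03. From 16 h to 64 h the medians were 0.74, 0.76, 0.73 and 0.62, in the same order. The corresponding medians of the VPA effect were 0.26, 0.03, 0.15 and 0.24 at 4 h and 0.42, 0.18, 0.20 and 0.14 at 64 h. A part of the element in these changes was not tested.

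Among the peptidases, which cut the proteins delivered to the lysosome, 9 of 10 rose between 4 h and 64 h of control culture and Ctsk fell. Of all tested probe sets 25.0% rose and 31.6% fell. The median change of the 10 peptidases was 0.74 and became 0.18 on the scale centred on the Gapdh probe set, with 5 genes higher and 2 lower. That scale had 8.92% of all tested probe sets higher and 76.3% lower. Tpp1, which trims tripeptides from the ends of proteins, read 8.78, 8.62 and 8.58 in Ctrl4h, 9.32 and 9.31 in Ctrl16h, and 10.32, 10.39 and 10.36 in Ctrl64h. With VPA, Tpp1 read 8.98, 8.97 and 8.91 in VPA4h, and 11.04, 11.04 and 11.05 in VPA64h. No arrays of any 2 groups overlapped, and the level was higher in each later control group and higher with VPA at each time. Tpp1 rose 3.24-fold by 64 h, a change of 1.70 (SE 0.07, adjusted p = 6.12e-11), and VPA added 0.68 (SE 0.07, adjusted p = 7.5e-06) at that time. Its VPA effect at 4 h, 0.29 (SE 0.07, adjusted p = 0.00885), turned to -0.039 with the Gapdh centring (adjusted p = 0.755).

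Ctsa, the carboxypeptidase that protects β-galactosidase and neuraminidase, read 8.68, 8.38 and 8.23 in Ctrl4h, 8.78 and 8.77 in Ctrl16h, and 9.91, 9.97 and 9.92 in Ctrl64h. With VPA, Ctsa read 8.85, 8.65 and 8.56 in VPA4h, and 10.37, 10.31 and 10.40 in VPA64h. All 64 h arrays lay above all earlier ones, and the VPA64h arrays above the Ctrl64h arrays. The change from 4 h to 64 h was 1.51 (SE 0.11, adjusted p = 8.1e-09), and VPA raised it further by 0.42 (SE 0.11, adjusted p = 0.00758), a call lost with the Gapdh centring (adjusted p = 0.126). Its rise by 16 h, 0.35 (SE 0.12, adjusted p = 0.0493), was near the threshold and did not pass it in 6 of the other settings nor without any 1 of 11 arrays.

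Lgmn, the asparaginyl endopeptidase that matures cathepsins, read 9.46, 9.67 and 9.44 in Ctrl4h, 8.69 and 8.74 in Ctrl16h, and 10.77, 10.67 and 10.64 in Ctrl64h. Lgmn with VPA read 10.10, 10.23 and 10.06 in VPA4h, and 11.42, 11.39 and 11.42 in VPA64h. Its level was lowest at 16 h and highest in VPA64h, and no groups overlapped. It fell by 0.81 (SE 0.09, adjusted p = 1.7e-05) by 16 h and then rose by 1.98 (SE 0.09, adjusted p = 7.22e-10), the largest rise of the 45 genes in that step. VPA raised it by 0.61 (SE 0.08, adjusted p = 5.33e-05) at 4 h and by 0.71 (SE 0.08, adjusted p = 1.57e-05) at 64 h.

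Ctsz, a cysteine carboxypeptidase, read 10.26, 10.09 and 9.97 in Ctrl4h, 10.45 and 10.33 in Ctrl16h, and 11.30, 11.23 and 11.19 in Ctrl64h. Ctsz with VPA read 10.19, 10.25 and 10.01 in VPA4h, and 11.60, 11.66 and 11.75 in VPA64h, so that the groups overlapped at 4 h and stood apart at 64 h. Ctsd, the main aspartic protease of the lysosome, read 10.62, 10.51 and 10.42 in Ctrl4h, 10.73 and 10.67 in Ctrl16h, and 11.56, 11.35 and 11.42 in Ctrl64h. Ctsd with VPA read 10.75, 10.70 and 10.51 in VPA4h, and 11.82, 11.76 and 11.96 in VPA64h, again with overlap at 4 h and none at 64 h. The VPA effect at 64 h was 0.43 (SE 0.09, adjusted p = 0.00304) for Ctsz and 0.41 (SE 0.09, adjusted p = 0.00422) for Ctsd, with adjusted p of 0.0725 and 0.0783 under the Gapdh centring. Both genes rose at least 2-fold between VPA4h and VPA64h, by 1.52 and 1.20. The cysteine proteases Ctsb, Ctsf and Ctsl and the aminopeptidase Ctsh rose by 0.31 to 0.56 in control culture, changes that turned to between -0.24 and -0.0014 on the scale centred on the Gapdh probe set. Of these, VPA raised Ctsl at 4 h by 0.26 (SE 0.08, adjusted p = 0.0282), which was -0.08 on that scale. At 64 h none of them passed the test, and with the replicate number as a block Ctsf did, at 0.34 (adjusted p = 0.0476).

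Ctsk, a collagen-degrading cysteine protease best known from osteoclasts, went the other way. It read 9.20, 9.07 and 9.14 in Ctrl4h, 9.26 and 9.15 in Ctrl16h, and 8.98, 8.56 and 8.61 in Ctrl64h. With VPA, Ctsk read 7.97, 8.28 and 8.21 in VPA4h, and 7.26, 6.81 and 6.51 in VPA64h. Every VPA array lay below every control array, and the VPA64h arrays were the lowest of all. VPA lowered Ctsk 1.98-fold at 4 h, a change of -0.98 (SE 0.15, adjusted p = 0.000184), and 3.63-fold at 64 h, a change of -1.86 (SE 0.15, adjusted p = 5.52e-07). The second effect was the larger, with a difference of -0.87 (SE 0.22, adjusted p = 0.0117). In control culture Ctsk fell by 0.42 (SE 0.15, adjusted p = 0.0298) from 4 h to 64 h. That call was lost without Ctrl4h replicate 1 or 3 or Ctrl64h replicate 2 or 3 and when all probe sets were tested (adjusted p up to 0.109).

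**Figure D2:**
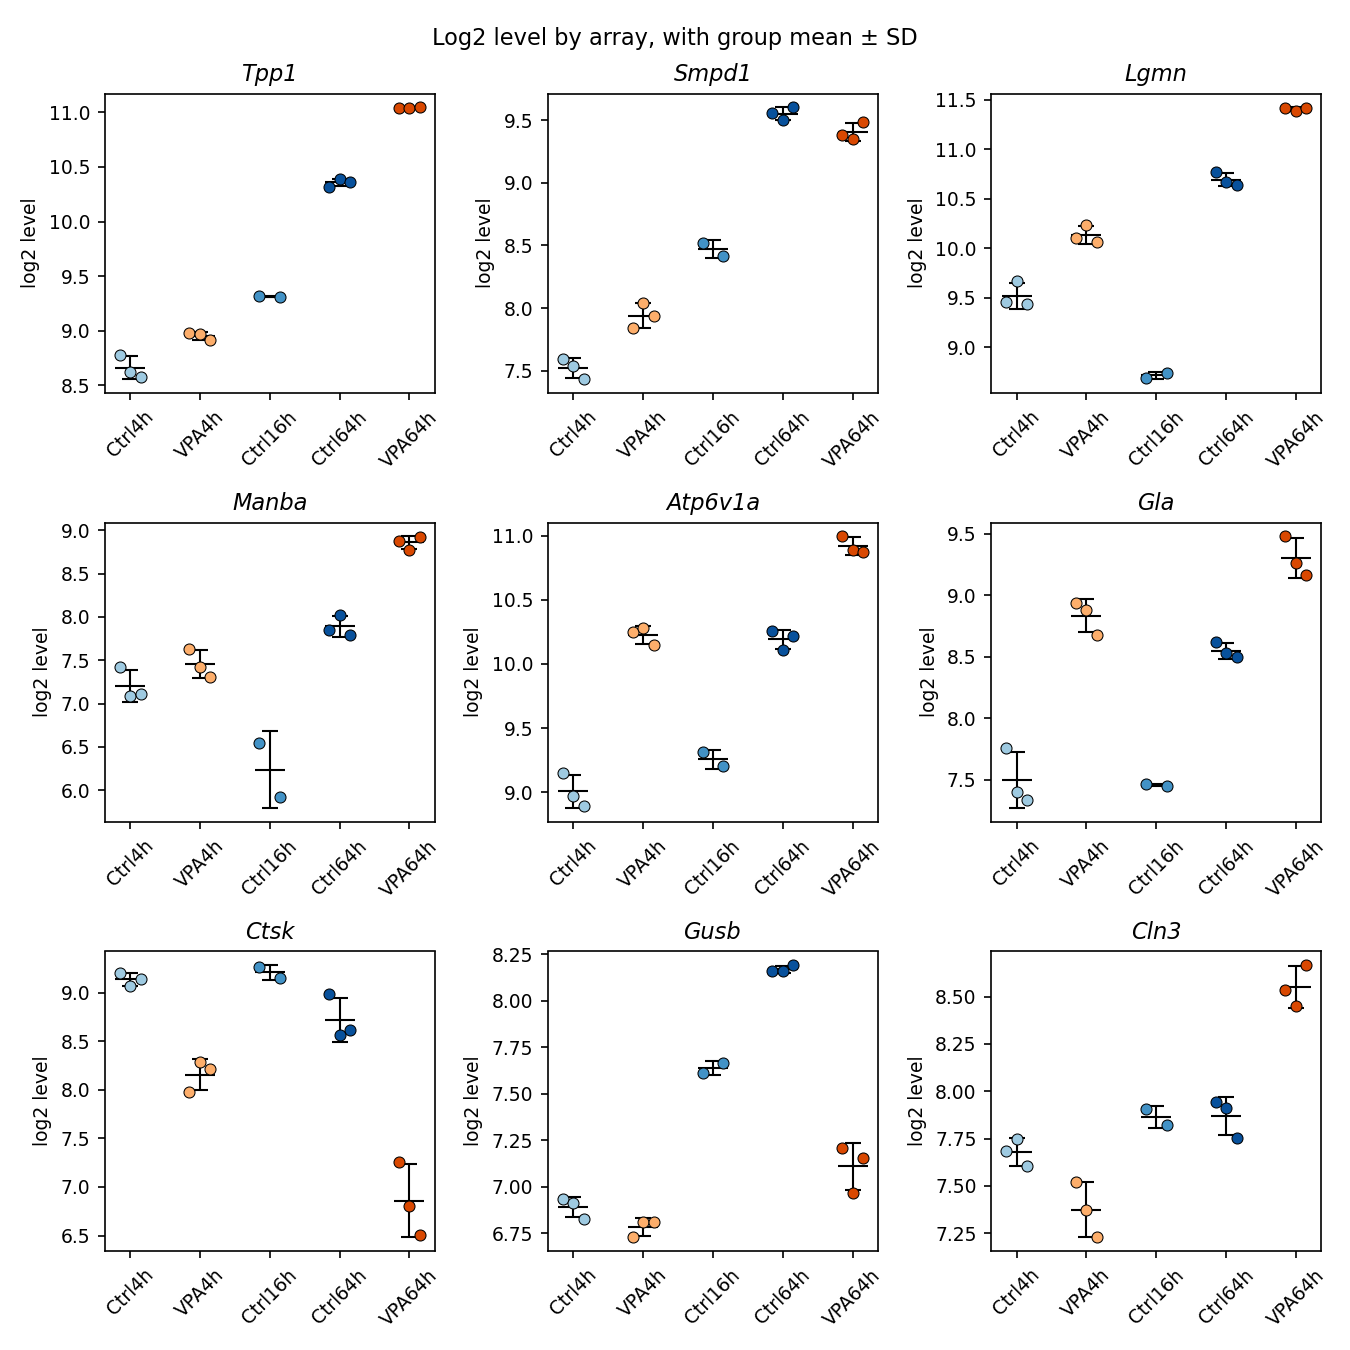
Log2 level of 9 lysosomal genes on each array (points) with the group mean and SD (lines), 1 panel per gene with its own axis. Tpp1 rises through the control groups and stands highest in VPA64h, Lgmn and Manba are lowest at 16 h, Atp6v1a and Gla are higher with VPA at both times, Ctsk is lower with VPA at both times, Gusb is lower with VPA at 64 h, and Cln3 is lower with VPA at 4 h and higher at 64 h.

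The 14 glycosidases and sulfatases strip sugars and sulfate groups from glycoproteins, glycolipids and glycosaminoglycans. Of them 13 rose between 4 h and 64 h of control culture, as did 25.0% of all tested probe sets. The median change of the 14 genes was 0.76 and became 0.20 on the scale centred on the Gapdh probe set, with 6 genes higher and 1 lower. That scale had 8.92% of all tested probe sets higher and 76.3% lower. VPA raised 2 and lowered 2 of the 14 at 4 h, where 11.5% and 9.96% of all tested probe sets rose and fell, and raised 2 and lowered 4 at 64 h, where 12.8% and 11.2% did. With the Gapdh centring 2 were higher and 9 lower at 4 h, and 2 higher and 4 lower at 64 h. Of all tested probe sets 3.89% were then higher and 64.8% lower at 4 h, and 6.3% and 16.5% at 64 h. Arsa, the sulfatase of the myelin lipid sulfatide, read 6.33, 6.11 and 6.19 in Ctrl4h, 6.57 and 6.49 in Ctrl16h, and 7.51, 7.71 and 7.69 in Ctrl64h. Arsa with VPA read 6.12, 6.22 and 6.14 in VPA4h, and 7.33, 7.30 and 7.21 in VPA64h. Both 64 h groups lay above all others, with the VPA64h arrays below those of Ctrl64h. Arsa rose 2.69-fold in control culture, a change of 1.43 (SE 0.09, adjusted p = 1.36e-09), and VPA lowered it by 0.35 (SE 0.09, adjusted p = 0.00593) at 64 h.

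Hexa, the α subunit of β-hexosaminidase, read 9.30, 9.22 and 8.92 in Ctrl4h, 9.31 and 9.31 in Ctrl16h, and 10.57, 10.44 and 10.46 in Ctrl64h. Hexa with VPA read 8.93, 9.01 and 8.69 in VPA4h, and 10.07, 10.27 and 10.09 in VPA64h. The 64 h arrays were all higher than the earlier ones. The rise in control culture was 1.34 (SE 0.11, adjusted p = 3.8e-08). The lower level with VPA at 64 h, -0.35 (SE 0.11, adjusted p = 0.0283), lost its call without Ctrl64h replicate 1 or 3 or VPA64h replicate 1 or 3. The call was also lost with the arrays centred on housekeeping genes and when all probe sets were tested (adjusted p up to 0.0978 over all settings). Idua, the iduronidase of heparan and dermatan sulfate, read 6.16, 6.30 and 6.49 in Ctrl4h, 6.63 and 6.49 in Ctrl16h, and 6.84, 6.88 and 6.86 in Ctrl64h. With VPA, Idua read 6.28, 6.06 and 6.16 in VPA4h, and 6.54, 6.57 and 6.42 in VPA64h, apart from the controls at 64 h. VPA lowered Idua by 0.35 (SE 0.09, adjusted p = 0.0126) at 64 h. This was no longer called without VPA64h replicate 3 or with the arrays centred on housekeeping genes (adjusted p up to 0.0576). Ids, the iduronate sulfatase that acts just before Idua, read 7.01, 6.93 and 6.93 in Ctrl4h, 7.66 and 7.64 in Ctrl16h, and 8.09, 8.04 and 8.06 in Ctrl64h. Ids with VPA read 7.02, 7.04 and 7.03 in VPA4h, and 8.02, 8.00 and 8.04 in VPA64h, close to the controls at both times. Ids rose by 1.11 (SE 0.07, adjusted p = 2.21e-09) in control culture, and its VPA effects of 0.07 and -0.05 did not pass the test.

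Gusb, β-glucuronidase, read 6.93, 6.91 and 6.83 in Ctrl4h, 7.61 and 7.66 in Ctrl16h, and 8.16, 8.16 and 8.19 in Ctrl64h. Gusb with VPA read 6.73, 6.81 and 6.81 in VPA4h, and 7.21, 6.96 and 7.16 in VPA64h. The control level was higher at each later time, while the VPA64h arrays lay only just above those of 4 h and below all Ctrl16h and Ctrl64h arrays. VPA lowered Gusb 2.09-fold at 64 h, a change of -1.06 (SE 0.08, adjusted p = 1.97e-07), and at 4 h the difference was -0.11 (SE 0.08, adjusted p = 0.445). The difference between both effects was -0.95 (SE 0.11, adjusted p = 3.74e-05). Gusb rose by 1.28 (SE 0.08, adjusted p = 2.32e-09) between 4 h and 64 h in control culture and by 0.33 (SE 0.08, adjusted p = 0.00312) with VPA, the latter -0.02 on the scale centred on the Gapdh probe set.

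Gla, α-galactosidase A, which clears globotriaosylceramide, read 7.76, 7.40 and 7.33 in Ctrl4h, 7.46 and 7.45 in Ctrl16h, and 8.62, 8.53 and 8.49 in Ctrl64h. Gla with VPA read 8.94, 8.88 and 8.68 in VPA4h, and 9.48, 9.26 and 9.16 in VPA64h. The VPA4h arrays were already above those of Ctrl64h, and the VPA64h arrays were highest. VPA raised Gla 2.53-fold at 4 h, by 1.34 (SE 0.11, adjusted p = 6.51e-07), the largest VPA effect upward among the 45 genes at that time, and by 0.75 (SE 0.11, adjusted p = 0.000174) at 64 h. Gla is the gene whose promoter holds the longer element at 2 places upstream of the start. Manba, β-mannosidase, read 7.42, 7.08 and 7.11 in Ctrl4h, 6.55 and 5.92 in Ctrl16h, and 7.85, 8.02 and 7.80 in Ctrl64h. With VPA, Manba read 7.63, 7.42 and 7.31 in VPA4h, and 8.88, 8.78 and 8.92 in VPA64h. The Ctrl16h arrays were lowest, with the widest gap within a group, and the VPA64h arrays highest. It fell by 0.97 (SE 0.16, adjusted p = 0.000322) by 16 h and rose by 1.66 (SE 0.16, adjusted p = 6.73e-07) afterwards, and VPA raised it 1.96-fold at 64 h, by 0.97 (SE 0.14, adjusted p = 0.000115).

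Man2b1, the lysosomal α-mannosidase, read 8.90, 8.60 and 8.30 in Ctrl4h, 7.55 and 7.43 in Ctrl16h, and 8.91, 8.96 and 8.84 in Ctrl64h. With VPA, Man2b1 read 8.88, 8.76 and 8.57 in VPA4h, and 8.92, 8.87 and 8.73 in VPA64h. Both Ctrl16h arrays lay below every other array, and all other groups overlapped. Man2b1 fell 2.16-fold by 16 h, by 1.11 (SE 0.14, adjusted p = 3.6e-05), and rose by 1.41 (SE 0.14, adjusted p = 1.11e-06) from 16 h to 64 h. Its level at 64 h differed from that at 4 h by 0.30 (SE 0.13, adjusted p = 0.0515).

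Gaa, the acid α-glucosidase that breaks down glycogen, read 7.71, 7.50 and 7.42 in Ctrl4h, 8.31 and 8.47 in Ctrl16h, and 8.37, 8.16 and 8.21 in Ctrl64h. With VPA, Gaa read 7.34, 7.17 and 7.21 in VPA4h, and 8.19, 8.46 and 8.44 in VPA64h. The Ctrl16h and Ctrl64h arrays overlapped and lay above those of Ctrl4h. Gaa rose by 0.85 (SE 0.12, adjusted p = 6.97e-05) by 16 h. Its lower level with VPA at 4 h, -0.30 (SE 0.10, adjusted p = 0.0468), lost its call without any 1 of 9 arrays. It did not pass in 5 of the other settings, among them centring on housekeeping genes and the replicate number as a block (adjusted p = 0.0609 with the block). Naglu, the N-acetylglucosaminidase of heparan sulfate, read 8.04, 7.97 and 7.86 in Ctrl4h, 8.30 and 8.05 in Ctrl16h, and 8.38, 8.51 and 8.37 in Ctrl64h. Naglu with VPA read 7.65, 7.69 and 7.53 in VPA4h, and 8.34, 8.48 and 8.36 in VPA64h, below the controls at 4 h and overlapping them at 64 h. Its VPA effect was -0.33 (SE 0.09, adjusted p = 0.0117) at 4 h. This call was lost without Ctrl4h replicate 1 or VPA4h replicate 3 and with the arrays centred on housekeeping genes (adjusted p up to 0.114). Of the remaining glycosidases and sulfatases, the β-galactosidase Glb1, the sialidase Neu1 and the sulfatases Galns and Sgsh rose by 0.28 to 0.88 in control culture, with Neu1 and Sgsh at -0.28 and -0.13 on the scale centred on the Gapdh probe set. VPA moved 1 of them, Neu1, which rose by 0.64 (SE 0.10, adjusted p = 0.000199) at 4 h.

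The 6 lipid hydrolases and cofactors all rose between 4 h and 64 h of control culture, 5 of them at least 2-fold. Of all tested probe sets 25.0% rose, and 6.68% at least 2-fold. The median change of the 6 genes was 1.56, the highest of the 5 roles. Smpd1, the acid sphingomyelinase, read 7.60, 7.53 and 7.43 in Ctrl4h, 8.52 and 8.42 in Ctrl16h, and 9.56, 9.50 and 9.60 in Ctrl64h. With VPA, Smpd1 read 7.84, 8.04 and 7.93 in VPA4h, and 9.38, 9.35 and 9.48 in VPA64h. No groups overlapped, and VPA64h lay just below Ctrl64h. Smpd1 rose 4.09-fold by 64 h, by 2.03 (SE 0.08, adjusted p = 3.24e-11), the largest rise of the 45 genes, with 0.95 of it by 16 h. VPA raised it by 0.42 (SE 0.08, adjusted p = 0.00123) at 4 h, a call lost with the Gapdh centring (adjusted p = 0.452), and at 64 h its effect was -0.15 (SE 0.08, adjusted p = 0.226).

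Asah1, the acid ceramidase that takes the next step in sphingolipid breakdown, read 8.59, 8.54 and 8.32 in Ctrl4h, 8.77 and 8.84 in Ctrl16h, and 10.25, 10.19 and 10.24 in Ctrl64h. With VPA, Asah1 read 8.93, 9.15 and 8.99 in VPA4h, and 10.30, 10.49 and 10.32 in VPA64h. The VPA4h arrays lay above those of Ctrl16h, and all 64 h arrays above all others. Asah1 rose by 1.74 (SE 0.09, adjusted p = 3.5e-10) in control culture and by 0.54 (SE 0.09, adjusted p = 0.000362) with VPA at 4 h, the latter with an adjusted p of 0.126 under the Gapdh centring, and at 64 h its VPA effect was 0.14 (SE 0.09, adjusted p = 0.295). Lipa, the acid lipase of cholesteryl esters and triglycerides, read 8.81, 8.59 and 8.63 in Ctrl4h, 8.71 and 8.54 in Ctrl16h, and 10.21, 10.36 and 10.17 in Ctrl64h. With VPA, Lipa read 9.87, 10.02 and 9.74 in VPA4h, and 10.77, 10.79 and 10.90 in VPA64h. The Ctrl4h and Ctrl16h arrays overlapped, the VPA4h arrays lay more than 1 above them on average, and the 64 h groups were highest. Lipa rose by 1.62 (SE 0.11, adjusted p = 1.33e-08) from 16 h to 64 h. VPA raised it 2.3-fold at 4 h, by 1.20 (SE 0.10, adjusted p = 3.15e-07), and by 0.57 (SE 0.10, adjusted p = 0.000359) at 64 h.

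Grn, the precursor of the granulins, read 9.80, 9.56 and 9.61 in Ctrl4h, 10.13 and 9.90 in Ctrl16h, and 11.24, 11.27 and 11.11 in Ctrl64h. With VPA, Grn read 10.71, 10.61 and 10.59 in VPA4h, and 11.69, 11.69 and 11.77 in VPA64h. Each later control group was higher than the one before, and each VPA group higher than its control. VPA raised Grn by 0.98 (SE 0.09, adjusted p = 1.17e-06) at 4 h and by 0.51 (SE 0.09, adjusted p = 0.000574) at 64 h. Ppt1, the thioesterase that removes palmitate from proteins, read 8.57, 8.64 and 8.51 in Ctrl4h, 8.43 and 8.39 in Ctrl16h, and 9.90, 9.75 and 9.87 in Ctrl64h. With VPA, Ppt1 read 8.62, 8.84 and 8.61 in VPA4h, and 10.67, 10.80 and 10.79 in VPA64h. The groups at 4 h and 16 h lay close together, and VPA64h was clear of Ctrl64h. VPA raised Ppt1 1.89-fold at 64 h, by 0.92 (SE 0.09, adjusted p = 1.61e-06), while its effect at 4 h was 0.11 (SE 0.09, adjusted p = 0.445). Psap, the precursor of the saposins that help to break down sphingolipids, changed by 0.25 (SE 0.08, adjusted p = 0.0104) in control culture, -0.31 on the scale centred on the Gapdh probe set.

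**Figure D3:**
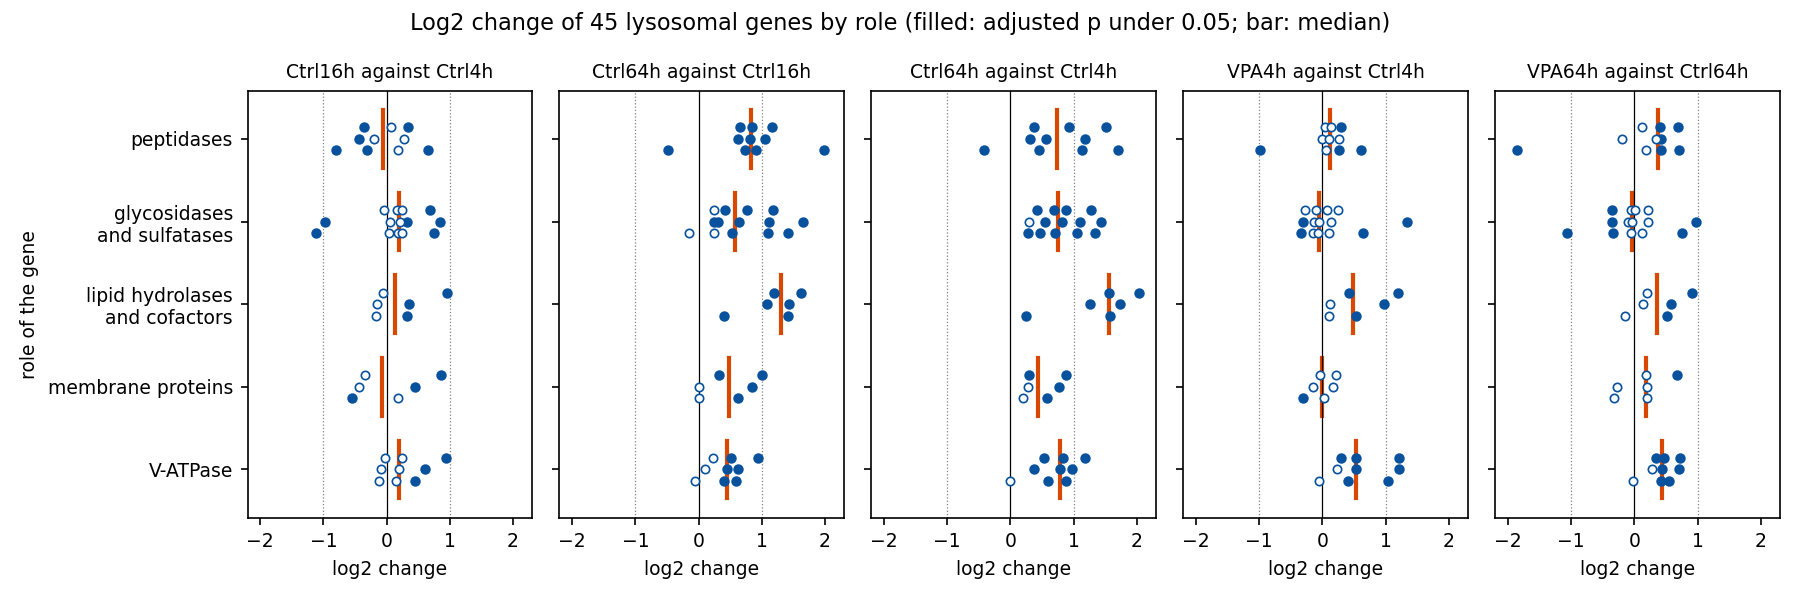
Log2 change of each of the 45 genes (points, filled where the adjusted p was under 0.05) by role in 5 comparisons, with the median of each role as a vertical bar and dotted lines at a 2-fold change. Between 4 h and 64 h of control culture the lipid hydrolases have the highest median, 1.56, and the membrane proteins the lowest, 0.43, which became -0.13 with the arrays centred on a Gapdh probe set. With VPA the V-ATPase median is 0.52 at 4 h and 0.43 at 64 h.

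Of the 6 membrane proteins 4 rose between 4 h and 64 h of control culture, where 25.0% of all tested probe sets did. The median change of the 6 genes was 0.43 and became -0.13 on the scale centred on the Gapdh probe set, with 1 gene higher and 2 lower. That scale had 8.92% of all tested probe sets higher and 76.3% lower. VPA lowered 1 of the 6 at 4 h (9.96% of all tested probe sets) and raised 1 at 64 h (12.8%), the same gene in both cases. This gene, Cln3, encodes the membrane protein that is lost in juvenile Batten disease, and it read 7.68, 7.75 and 7.61 in Ctrl4h, 7.91 and 7.82 in Ctrl16h, and 7.94, 7.91 and 7.75 in Ctrl64h. With VPA, Cln3 read 7.52, 7.37 and 7.23 in VPA4h, and 8.53, 8.45 and 8.67 in VPA64h. The VPA4h arrays were the lowest and the VPA64h arrays the highest of all, and the Ctrl16h and Ctrl64h arrays overlapped. VPA changed Cln3 by -0.31 (SE 0.09, adjusted p = 0.0265) at 4 h and by 0.68 (SE 0.09, adjusted p = 6.92e-05) at 64 h, a difference of 0.99 (SE 0.13, adjusted p = 0.000103), the largest upward among the 45 genes. The effect at 4 h was no longer called without Ctrl4h replicate 1 or 2 or VPA4h replicate 2 or 3. Nor was it called with the arrays centred on housekeeping genes or in a fit of only the groups compared (adjusted p up to 0.258 over all settings).

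Mcoln1, a calcium channel of the lysosomal membrane, read 7.78, 7.68 and 7.76 in Ctrl4h, 8.64 and 8.57 in Ctrl16h, and 8.71, 8.68 and 8.45 in Ctrl64h. With VPA, Mcoln1 read 7.80, 7.60 and 7.68 in VPA4h, and 8.97, 8.72 and 8.74 in VPA64h. Both Ctrl16h arrays lay within the range of Ctrl64h, and VPA and control arrays overlapped at 4 h. Mcoln1 rose by 0.87 (SE 0.11, adjusted p = 2.64e-05) by 16 h and differed by 0.01 (SE 0.11, adjusted p = 0.946) between 16 h and 64 h. Lamp2, an abundant glycoprotein of the membrane and a receptor of autophagy, read 10.68, 10.66 and 10.46 in Ctrl4h, 10.01 and 10.09 in Ctrl16h, and 10.87, 10.94 and 10.87 in Ctrl64h. With VPA, Lamp2 read 10.77, 10.85 and 10.80 in VPA4h, and 11.05, 11.11 and 11.10 in VPA64h. The Ctrl16h arrays were the lowest, and at both times the VPA arrays lay above their controls. Lamp2 fell by 0.55 (SE 0.09, adjusted p = 0.000281) by 16 h and rose by 0.84 (SE 0.09, adjusted p = 1.81e-06) from 16 h to 64 h, and its VPA effects of 0.21 and 0.19 did not pass the test. Scarb2, a receptor that brings a newly made hydrolase to the lysosome, read 10.33, 11.00 and 10.84 in Ctrl4h, 10.21 and 10.38 in Ctrl16h, and 11.21, 11.30 and 11.38 in Ctrl64h. With VPA, Scarb2 read 10.52, 11.07 and 11.09 in VPA4h, and 10.95, 11.20 and 10.93 in VPA64h. At 4 h replicate 1 was low with and without VPA, and all 64 h arrays except 2 with VPA lay above all earlier ones. Scarb2 rose by 1.00 (SE 0.18, adjusted p = 0.000393) from 16 h to 64 h, and VPA changed it by 0.17 and -0.27, neither past the test. Lamp1 rose by 0.77 from 4 h to 64 h, and the tetraspanin Cd63 changed by 0.28 (SE 0.14, adjusted p = 0.0904).

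Of the 9 V-ATPase genes 8 rose between 4 h and 64 h of control culture, where 25.0% of all tested probe sets did. The median change of the 9 genes was 0.79 and became 0.23 on the scale centred on the Gapdh probe set, with 3 genes higher and 1 lower. That scale had 8.92% of all tested probe sets higher and 76.3% lower. Over all tested probe sets, VPA raised 11.5% and lowered 9.96% at 4 h, and raised 12.8% and lowered 11.2% at 64 h. Among the V-ATPase genes it raised 7 of 9 at 4 h and 7 of 9 at 64 h and lowered none, with median effects of 0.52 and 0.43. On the other scale these medians were 0.19 at 4 h, with 3 genes higher and 1 lower, and 0.31 at 64 h, with 4 higher. Of all tested probe sets 3.89% were higher and 64.8% lower on it at 4 h, and 6.3% and 16.5% at 64 h. Atp6v1a, the subunit that splits ATP in the V1 sector, read 9.15, 8.97 and 8.89 in Ctrl4h, 9.31 and 9.20 in Ctrl16h, and 10.25, 10.11 and 10.22 in Ctrl64h. With VPA, Atp6v1a read 10.25, 10.28 and 10.15 in VPA4h, and 11.00, 10.89 and 10.87 in VPA64h. The VPA4h arrays overlapped those of Ctrl64h, and VPA64h stood above all. VPA raised Atp6v1a 2.33-fold at 4 h, by 1.22 (SE 0.09, adjusted p = 1.19e-07), and by 0.73 (SE 0.09, adjusted p = 1.69e-05) at 64 h.

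Atp6v0a1, a membrane subunit of the proton path, read 8.29, 7.77 and 7.95 in Ctrl4h, 8.88 and 9.01 in Ctrl16h, and 8.96, 8.85 and 8.85 in Ctrl64h. With VPA, Atp6v0a1 read 9.34, 9.04 and 9.24 in VPA4h, and 9.74, 9.32 and 9.72 in VPA64h. Every VPA array lay above every control array. The control level rose by 0.94 (SE 0.15, adjusted p = 0.000286) by 16 h and differed by -0.06 (SE 0.15, adjusted p = 0.786) between 16 h and 64 h, and VPA raised it 2.31-fold at 4 h, by 1.21 (SE 0.13, adjusted p = 7.3e-06), and by 0.71 (SE 0.13, adjusted p = 0.00113) at 64 h. Atp6v1d, part of the central stalk that turns in the pump, read 7.92, 7.89 and 7.75 in Ctrl4h, 8.28 and 8.32 in Ctrl16h, and 8.82, 8.82 and 8.83 in Ctrl64h. With VPA, Atp6v1d read 8.85, 9.04 and 8.79 in VPA4h, and 9.27, 9.25 and 9.22 in VPA64h. The VPA4h arrays overlapped those of Ctrl64h, and the VPA64h arrays were highest. VPA raised Atp6v1d by 1.04 (SE 0.08, adjusted p = 3.15e-07) at 4 h and by 0.43 (SE 0.08, adjusted p = 0.00122) at 64 h.

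The V0 subunit Atp6v0d1, the V1 subunits Atp6v1b2, Atp6v1c1 and Atp6v1h and the accessory proteins Atp6ap1 and Atp6ap2 make up the remainder of the pump genes. With VPA at 4 h Atp6v0d1 rose by 0.53 (SE 0.10, adjusted p = 0.0011), Atp6v1b2 by 0.52 (SE 0.08, adjusted p = 0.000211), and Atp6v1c1 and Atp6ap2 by 0.29 and 0.41. With the Gapdh centring none of these 4 calls was kept (adjusted p of 0.139, 0.102, 0.749 and 0.534), and Atp6v1c1 was at -0.041. Atp6v1h differed by 0.24 (SE 0.11, adjusted p = 0.144) at that time. At 64 h Atp6v1b2 rose by 0.55 (SE 0.08, adjusted p = 0.000178), and Atp6v1c1, Atp6v1h and Atp6ap2 by 0.34 to 0.47, while Atp6v0d1 differed by 0.28 (SE 0.10, adjusted p = 0.0668). The calls of Atp6v1c1, Atp6v1h and, among the genes above, Atp6v1d at 64 h were lost with the Gapdh centring (adjusted p of 0.173, 0.0965 and 0.0531). Atp6ap1 was the V-ATPase gene that VPA moved at neither time, with effects of -0.05 (SE 0.08, adjusted p = 0.764) and -0.02 (SE 0.08, adjusted p = 0.895). Atp6v1h, the regulatory V1 subunit, was the V-ATPase gene without a change in control culture that passed the test, -0.01 (SE 0.11, adjusted p = 0.957).

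The 7 genes that fell by 16 h were Ctsb, Ctsf, Ctsl, Lgmn, Man2b1, Manba and Lamp2, with changes of -0.31 for Ctsb to -1.11 for Man2b1. From 16 h to 64 h, a step that shares the Ctrl16h arrays, their changes ran from 0.62 for Ctsb to 1.98 for Lgmn. Leaving out 1 or the other Ctrl16h array left 4 genes that fell by 16 h, since Ctsb, Ctsl and Ctsf were then no longer called. Their adjusted p reached 0.116, 0.0678 and 0.151 over all settings. Of the 14 genes that rose by 16 h, Smpd1, Atp6v0a1, Mcoln1 and Gaa did so most. These 4 rose by 0.85 to 0.95 and kept an adjusted p of at most 0.015 whichever array was left out and on each scale.

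The VPA effects at 4 h and at 64 h rest on different arrays and can be set against each other. VPA raised 11 of the 45 genes at both times (24.4%), against 4.51% of all tested probe sets. These 11 were 68.8% of the genes raised at 4 h and 61.1% of those raised at 64 h, where the shares over all tested probe sets were 39.3% and 35.3%. Ctsk was lower with VPA at both times, and Cln3 was lower at 4 h and higher at 64 h. A test of the difference itself called 12 genes. The VPA effect was the more positive at 64 h for 4 of them (7.54% of the tested probe sets) and the more negative for 8 (8.33%), and no difference reached 2-fold (0.893% and 1.70% of the tested probe sets). Neu1, Asah1 and Atp6v0a1 joined these with the replicate number as a block, with adjusted p of 0.0455, 0.0427 and 0.0498. The rise between 4 h and 64 h was also seen with VPA, on arrays that the control comparison does not use: 39 genes rose, as did 23.2% of the tested probe sets, 15 of them at least 2-fold (5.26%), and Ctsk fell at least 2-fold, where 27.1% fell and 2.29% at least 2-fold. Of the 45 genes, 38 rose in both (84.4%), against 17.9% of all tested probe sets. These 38 were 95% of the genes that rose in control culture and 97.4% of those that rose with VPA, beside 71.7% and 77.3% over all tested probe sets.

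**Figure D4:**
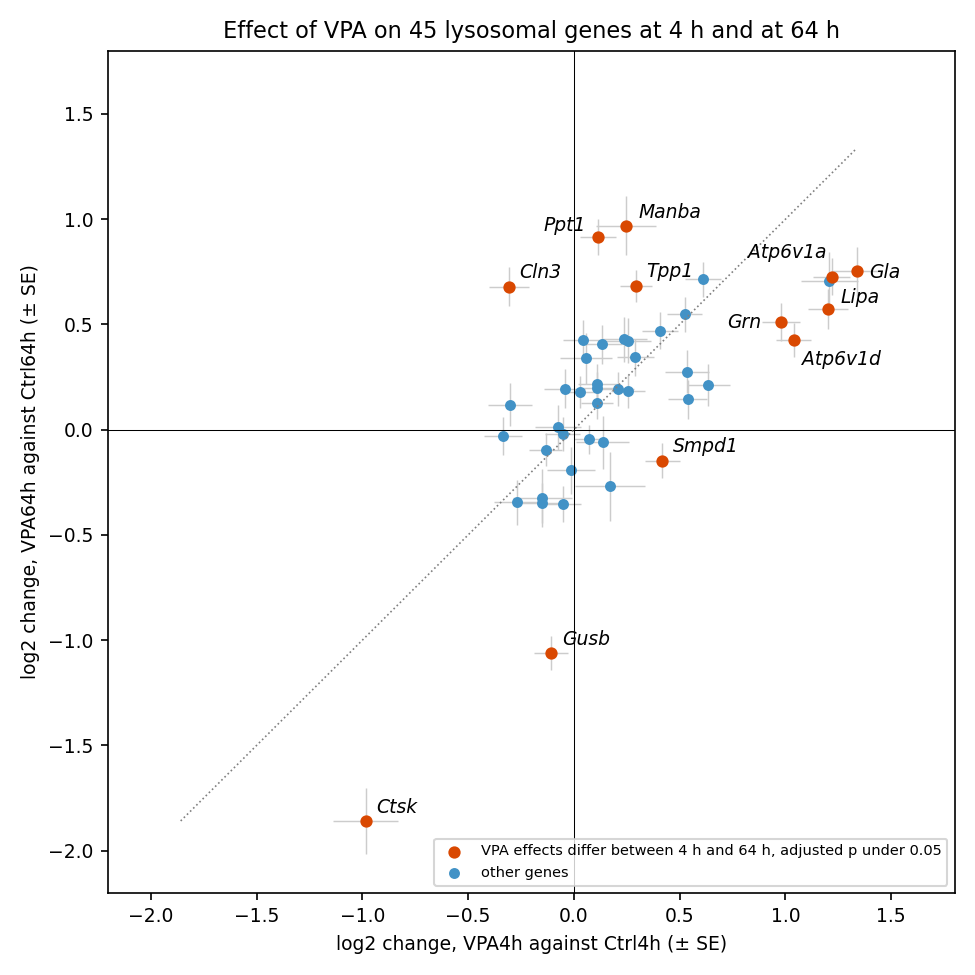
VPA effect (log2 change, with SE) at 4 h on the x axis and at 64 h on the y axis for the 45 genes, with the line of equal effects dotted. The 12 genes in orange differ between both times, with Cln3, Ppt1, Manba and Tpp1 above the line and Gusb, Ctsk, Lipa, Atp6v1d, Gla, Smpd1, Atp6v1a and Grn below it.

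Other genes of the lysosome were counted from lists drawn up by function, with earlier results of these data known. The counts stand beside the 25.0% of all tested probe sets that rose and the 31.6% that fell between 4 h and 64 h. Of 17 further enzymes and activators 13 rose between 4 h and 64 h of control culture and none fell, with a median change of 0.99. The largest rises were those of Pla2g15, a lysosomal phospholipase, by 1.62 (SE 0.10, adjusted p = 2.06e-09), of Aga, which splits the link between sugar and asparagine, by 1.60 (SE 0.10, adjusted p = 2.36e-09), and of Pcyox1, which degrades prenylated cysteines, by 1.52 (SE 0.10, adjusted p = 5.15e-09). Of 24 further membrane proteins 14 rose and 3 fell, led by Ostm1, the partner of the chloride transporter Clcn7, by 1.11 (SE 0.11, adjusted p = 3.69e-07), and Tmem175, a potassium channel, by 0.99 (SE 0.12, adjusted p = 3.95e-06). Of 9 further cathepsins and cystatins 3 rose and 2 fell. Among them the cysteine proteases Ctso and Ctsc rose by 1.09 and 0.81, and Ctsw, a cathepsin of cytotoxic lymphocytes, fell by 0.61. Ctsw lay below the median of the tested probe sets, 6.40, at 5.42 in Ctrl4h and 4.81 in Ctrl64h. By 16 h none of the 9 had risen (12.8% of all tested probe sets) and 4 had fallen (7.32%). Cst3, the secreted inhibitor cystatin C, was down by 0.77 (SE 0.10, adjusted p = 5.2e-05) and Ctso by 0.74 (SE 0.14, adjusted p = 0.00121). Of 14 further V-ATPase subunits, several of them known from other tissues, 5 rose and 2 fell by 64 h, with Atp6v0e up by 0.93, Atp6v1e1 up by 0.54 and Atp6v0a4, known from the kidney, down by 0.52. Atp6v0a4 also lay below the median of the tested probe sets, at 5.47 in Ctrl4h and 4.95 in Ctrl64h. Of 4 genes of mannose 6-phosphate delivery Igf2r and Gnptg rose, by 0.39 and 0.36.

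With VPA 11.5% of all tested probe sets rose and 9.96% fell at 4 h, and 12.8% rose and 11.2% fell at 64 h. VPA raised 4 of the 17 further enzymes and activators at 4 h and lowered 2, among them Pcyox1, up by 0.90, the phosphatase Acp2, down by 0.80, and the fucosidase Fuca1, up by 0.70. At 64 h it raised 5 and lowered 3 of them, among them Galc, the galactosylceramidase, down by 0.59, the carboxypeptidase Scpep1, up by 0.58, and Gm2a, the activator of GM2 ganglioside breakdown, up by 0.54. Of the 9 further cathepsins and cystatins limma called none at 4 h (1 at an unadjusted p under 0.05), and at 64 h VPA raised Ctsc by 0.31 and lowered Ctso and Cstb by 0.60 and 0.38. Igf2r, the mannose 6-phosphate receptor that brings new hydrolases to the lysosome, was raised by VPA by 0.92 (SE 0.15, adjusted p = 0.000247) at 4 h and by 1.59 (SE 0.15, adjusted p = 1.71e-06) at 64 h. VPA raised 4 of the 14 further V-ATPase subunits at 4 h, with Tcirg1, the a3 subunit, up by 1.35 (SE 0.09, adjusted p = 1.01e-07), and at 64 h it raised 1 and lowered 1. It also raised 6 of the 24 further membrane proteins at 4 h and lowered 3, among them the cholesterol exporter Npc1, which rose by 1.04 (SE 0.12, adjusted p = 1.05e-05), and at 64 h raised 6 and lowered 1, Tmem175, by 0.65 (SE 0.12, adjusted p = 0.000929).

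Among 10 MiT/TFE factors and their regulators, 2 were higher and 2 lower in Ctrl64h than in Ctrl4h. Of all tested probe sets 25.0% rose and 31.6% fell, and neither count was above these shares. Tfec, a relative of TFEB, rose by 1.31 (SE 0.16, adjusted p = 5.49e-06) and Rragd, a Rag GTPase of the nutrient-sensing complex on the lysosome, by 1.15 (SE 0.11, adjusted p = 2.18e-07). Rptor, the substrate-binding part of the kinase complex mTORC1, fell by 0.67 (SE 0.08, adjusted p = 3.95e-06) and Tfe3 by 0.63 (SE 0.09, adjusted p = 2.16e-05). Of the 10 genes VPA raised 3 and lowered 2 at 4 h (11.5% and 9.96% of all tested probe sets). It raised 4 and lowered 1 at 64 h (12.8% and 11.2%). At 4 h VPA raised Rragd by 1.18 (SE 0.11, adjusted p = 1.11e-06) and Tfeb by 0.43 (SE 0.09, adjusted p = 0.00172) and lowered Tfec by 0.54 (SE 0.16, adjusted p = 0.0261). At 64 h it lowered Tfec by 1.05 (SE 0.16, adjusted p = 0.000219) and raised Mitf by 0.52 (SE 0.10, adjusted p = 0.00159). For Tfeb the difference between both VPA effects was -0.62 (SE 0.13, adjusted p = 0.00288). The mRNA level of these factors does not show where in the cell the proteins are.

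Cell type markers were followed beside the lysosomal genes. Between 4 h and 64 h of control culture 2 of 11 stellate cell markers rose, the activation markers Acta2 by 2.83 (SE 0.13, adjusted p = 8e-11) and Des by 1.96 (SE 0.08, adjusted p = 3.44e-11), and 6 fell, 5 of them (Reln, Hgf, Ngfr, Ecm1 and Colec11) at least 2-fold, where 25.0% of all tested probe sets rose and 31.6% fell. Macrophages are rich in lysosomes, and 18 of their markers were followed for that reason. By group mean only 1 of the 18 lay above the median of all tested probe sets, and in Ctrl64h 2 did. The log2 of the summed level of the 18 markers lay between 9.97 and 10.56 in Ctrl4h, 9.84 and 9.90 in Ctrl16h, 10.14 and 10.83 in Ctrl64h, 9.82 and 10.42 in VPA4h, and 9.92 and 10.47 in VPA64h. It therefore overlapped between Ctrl4h and Ctrl64h and between VPA and control arrays at each time, and was higher in Ctrl64h than in Ctrl16h. Between 4 h and 64 h of control culture 1 of the 18, Itgam, rose and 6 fell. From 16 h to 64 h 5 rose, with Lyz2 up by 1.79 (SE 0.54, adjusted p = 0.0143), and 2 fell, where 19.2% and 23.9% of all tested probe sets did. VPA moved none of the 18 at 4 h in the limma test (0 at an unadjusted p under 0.05) and lowered 4 at 64 h, where it lowered 11.2% of all. Of 11 hepatocyte, 10 sinusoidal endothelial and 8 lymphocyte markers, 0, 1 and 0 rose and 4, 5 and 3 fell between 4 h and 64 h. The part of these markers in the changes of the lysosomal genes was not tested.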

How the data were processed

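RNA of 14 HSC cultures was hybridised to Affymetrix Mouse Gene 1.0 ST arrays. The authors deposited log2 expression values made by RMA, with GeneSpring GX 11 per the methods and Affymetrix Expression Console per the submitters' processing notes. Settings are not given in the sources used here. The values were used without further normalization. Probe sets were named by GEO's platform annotation. Of 35557 probe sets 21789 carry exactly 1 symbol, 1621 several and 12147 none, and the 23410 with at least 1 symbol were tested. All 45 symbols matched RefSeq (GRCm38.p6).

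Groups were taken from the labels. One linear model of the 5 groups was fitted with limma 3.58.1 in R 4.3.3 (9 residual degrees of freedom and 6.52 prior ones). The 7 contrasts were tested two-sided with Benjamini-Hochberg adjustment over all tested probe sets and a threshold of 0.05. The methods' ANOVA with a 2-fold limit, other probe set filters and centrings, a replicate block and leaving out each array were run as alternatives. Same-numbered arrays of Ctrl4h and VPA4h deviated together weakly (correlations 0.16, 0.28 and 0.14), as did those of Ctrl64h and VPA64h (0.16, 0.16 and 0.17). Same-numbered arrays of other groups had correlations from -0.24 to 0.23. The numbers may thus pair the arrays of the VPA comparisons, which the main fit does not use and the block does. Values in every array are given for the 4 called members with the largest rise and the 4 with the largest fall in each comparison and for every member called at 2-fold. Of the further lists up to 3 called genes with the largest change are named, and promoters are shown for the 4 members with the longer element and the largest change between Ctrl4h and Ctrl64h. The members and all gene lists were chosen with earlier results of these data known. Some genes of the further lists are not reported here.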

Additional observations from a re-analysis of the deposited data

Results flagged for a closer look

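The VPA effect on 12 lysosomal genes differed between 4 h and 64 h by a test of the difference itself (limma, adjusted p under 0.05, effect at 64 h minus effect at 4 h). It was the more positive at 64 h for Cln3 by 0.99 (SE 0.13, adjusted p = 0.000103), Ppt1 by 0.80 (SE 0.12, adjusted p = 0.000284), Manba by 0.72 (SE 0.20, adjusted p = 0.0204) and Tpp1 by 0.39 (SE 0.11, adjusted p = 0.0182). It was the more negative for Gusb, with a difference of -0.95 (SE 0.11, adjusted p = 3.74e-05), and for the protease Ctsk, with -0.87 (SE 0.22, adjusted p = 0.0117). The lipid hydrolases and cofactors Lipa, Smpd1 and Grn had differences of -0.63 (SE 0.13, adjusted p = 0.00425), -0.57 (SE 0.12, adjusted p = 0.00316) and -0.47 (SE 0.13, adjusted p = 0.0187), in this order. For Gla the difference was -0.59 (SE 0.16, adjusted p = 0.0208). It was -0.49 (SE 0.12, adjusted p = 0.0111) for Atp6v1a and -0.61 (SE 0.12, adjusted p = 0.00173) for Atp6v1d, which both belong to the V-ATPase. The calls of Gla, Manba and Grn were lost in some of the fits that left out 1 array, with an adjusted p of up to 0.191, 0.0566 and 0.273 over all settings. That of Tpp1 was lost with the arrays centred on housekeeping genes (adjusted p = 0.0688). Those of Lipa, Smpd1, Atp6v1a and Atp6v1d were lost with the arrays centred on the Gapdh probe set (adjusted p of 0.0846, 0.0897, 0.217 and 0.0707).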

How the results depend on the processing

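With the additional 2-fold limit, and with the methods' one-way ANOVA under the same limit, 0 genes rose and 1 fell by 16 h, 14 rose and 0 fell from 16 h to 64 h, 15 rose and 0 fell between Ctrl4h and Ctrl64h, 5 rose and 0 fell with VPA at 4 h, 0 rose and 2 fell with VPA at 64 h, and 15 rose between VPA4h and VPA64h. The ANOVA gives no value for the difference of VPA effects, for which 0 genes reached 2-fold in either direction. With the arrays centred on the Gapdh probe set 6 genes rose and 20 fell by 16 h, 20 rose and 7 fell between Ctrl4h and Ctrl64h, 8 rose and 17 fell with VPA at 4 h, 25 rose and 2 fell between VPA4h and VPA64h, and the difference of VPA effects was positive for 8 and negative for 2. Of all tested probe sets 2.42% rose and 69.2% fell by 16 h on this scale, and 8.92% and 76.3% between Ctrl4h and Ctrl64h. The shares were 3.89% and 64.8% with VPA at 4 h, and 11.6% and 65.5% between VPA4h and VPA64h. The difference of VPA effects was positive for 17.3% and negative for 3.78%. With centring on housekeeping genes 11 genes fell by 16 h, 1 fell with VPA at 4 h, 3 fell with VPA at 64 h, and 2 fell between VPA4h and VPA64h. The shares of all tested probe sets that fell were 17.5%, 5.95%, 8.53% and 54.5%, in this order. When all probe sets were tested 0 genes fell in Ctrl64h against Ctrl16h and 0 in Ctrl64h against Ctrl4h. A fit of only the groups of a comparison lowered 2 genes with VPA at 4 h.

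Centring on the Gapdh probe set turned the sign of 32 changes that passed the test with or without it. Ctsb, Neu1, Psap and Lamp2 in Ctrl64h against Ctrl4h passed it both ways. Others did not pass it after centring, such as Ctsl in Ctrl64h against Ctrl4h (adjusted p = 0.991), or had not passed before, such as Glb1 by 16 h. By 16 h the changes that turned were Ctsa (-0.074), Glb1 (-0.36), Neu1 (-0.39), Arsa (-0.10), Asah1 (-0.10), Grn (-0.060) and Atp6v1b2 (-0.27). In Ctrl64h against Ctrl4h they were Ctsb (-0.24), Ctsf (-0.18), Ctsh (-0.10), Ctsl (-0.0014), Idua (-0.011), Naglu (-0.091), Neu1 (-0.28), Sgsh (-0.13), Psap (-0.31), Lamp2 (-0.26), Cln3 (-0.37), Atp6ap1 (-0.18) and Atp6ap2 (-0.029). With VPA at 4 h they were Ctsl (-0.076), Ctsz (-0.29), Tpp1 (-0.039), Ids (-0.26), Lamp1 (-0.30) and Atp6v1c1 (-0.041). In VPA64h against VPA4h they were Ctsb (-0.016), Ctsh (-0.071), Gusb (-0.024), Idua (-0.0017), Psap (-0.0066) and Lamp2 (-0.070). With VPA at 64 h no change turned, but the calls of Ctsa, Ctsd, Ctsz, Atp6v1c1, Atp6v1d and Atp6v1h were lost and a fall of Cd63 was gained, which left 12 genes higher and 6 lower (6.3% and 16.5% of all tested probe sets). The calls of Gaa, Glb1, Manba, Lamp1, Scarb2, Atp6v0a1, Atp6v1b2 and Atp6v1c1 in Ctrl64h against Ctrl4h, and of Tpp1, Lamp1, Atp6v0d1 and Atp6v1d by 16 h, were also lost on this scale without turning. Centring takes the same amount off every gene of an array, so the shift is not particular to the genes named. The median of all tested probe sets moved from -0.01 to -0.43 by 16 h, and from -0.03 to -0.36 with VPA at 4 h. Why the Gapdh probe set moved against the bulk of the others was not tested.

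Leaving out 1 array at a time gave 10 to 17 genes higher and 4 to 7 lower by 16 h, 33 to 36 higher and 0 to 1 lower in Ctrl64h against Ctrl16h, and 38 to 41 higher and 0 to 1 lower in Ctrl64h against Ctrl4h. It gave 14 to 17 higher and 1 to 5 lower with VPA at 4 h, 18 to 19 higher and 3 to 6 lower with VPA at 64 h, 37 to 39 higher and 1 lower in VPA64h against VPA4h, and 3 to 6 positive and 7 to 10 negative differences of VPA effects. The lower counts fell most with either Ctrl16h array left out by 16 h, with Ctrl4h replicate 1 or 2 or VPA4h replicate 2 or 3 left out for VPA at 4 h, and with VPA64h replicate 3 left out for VPA at 64 h. Single calls were also lost without other arrays, such as that of Ctsf by 16 h without Ctrl4h replicate 1 or 3. The call of Hexa with VPA at 64 h was also lost without Ctrl64h replicate 1 or 3 or VPA64h replicate 1.

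With the replicate number as a block, which treats same-numbered arrays as matched, 6 calls were lost. They were Ctsa (adjusted p = 0.0698) and Asah1 (0.0567) by 16 h, Idua (0.0513) and Sgsh (0.0575) in Ctrl64h against Ctrl16h, Gaa (0.0609) with VPA at 4 h, and Ctsh (0.0567) in VPA64h against VPA4h. The block gained 7, among them Man2b1 in Ctrl64h against Ctrl4h (0.0137) and Ctsf with VPA at 64 h (0.0476), and changed no other call of the 45 genes. Ctsh was below the median of all tested probe sets and had no value with such probe sets left out. With 2 arrays in Ctrl16h and 3 in each other group, RMA values without counts, and 1 probe set per gene, small changes were not resolved.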
